A study of Homo sapiens with 12 samples.

Results

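The interferon pathway was followed through 58 genes: 14 that carry or restrain the signal (receptors, kinases, transcription factors and feedback inhibitors) and 44 stimulated genes that act as antiviral effectors. The list names genes by symbol, with no threshold on a measured value, but was drawn up with earlier results of these data known. All 58 symbols were found among the 35337 genes of the table. Of these, 37 passed the filter for testing, a mean normalised read count of 5 or more over the 12 libraries, and 21 fell below it.

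RNA of EndoC-βH3 cells was profiled by CEL-Seq, which reads the 3′ end of polyadenylated transcripts. EndoC-βH3 is a single human beta-like line made from fetal pancreas and immortalised with hTERT and SV40 large T antigen, and all cells also carry CreER, a recombinase that 4-hydroxytamoxifen (4-OHT) switches on to remove both transgenes. The 6 senescent libraries came from cells given 4-OHT for 3 weeks, and the 6 non-senescent libraries came from cells without it, so an effect of 4-OHT itself and senescence cannot be told apart. Batch A held 2 libraries of each group (8873569 to 17106776 reads) and batch B held 4 of each (4672924 to 7063264 reads). The letters A and B of the sample titles were taken as the batch, and what differed between the batches is not stated. The labels do not say that libraries came from separate cultures, so p-values measure the spread between these libraries, which may be technical.

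Type I interferons bind the IFNAR1 and IFNAR2 chains, and interferon gamma binds the IFNGR1 and IFNGR2 chains. The receptors activate Janus kinases, which phosphorylate STAT proteins. STAT2 and IRF9 take part in the complex that binds interferon-stimulated response elements in promoters, whereas interferon gamma acts mainly through gamma-activated sites, and USP18 and the SOCS proteins shut the signal down. In beta cells the pathway is known for antiviral defence and for its activity in the islets of people with type 1 diabetes.

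Libraries matched their labels: CDKN1A, the cell-cycle inhibitor p21, had a normalised read count of 45.1 ± 20.2 (SD, n = 6) in non-senescent and 981 ± 661 in senescent cells, and the proliferation marker MKI67 had a mean of 537 and 73.6. In senescent libraries CDKN1A was 133 to 134 in batch A but 1290 to 1500 in batch B. The batches gave CDKN1A log2 fold changes of 2.18 (A) and 4.78 (B; limma interaction adjusted p = 0.00191), and MKI67 ones of -3.45 and -2.51 (adjusted p = 0.022), so the response of these check genes differed between the batches. INS rose from 19900 ± 8850 to 99500 ± 60400, and all 9 beta-cell markers examined passed the filter. The line also carried SST, the delta-cell hormone somatostatin, at a mean of 206128 in non-senescent and 128684 in senescent libraries. Of markers of other cells, the summed level of 6 leukocyte genes was 24.6 to 58.4 in non-senescent and 20.2 to 46.2 in senescent libraries. CD3E was at 0 in every library, PTPRC was called lower, and CD68, the other leukocyte gene tested, was not called. Acinar and ductal sums moved without overlap, but each rested almost wholly on a single gene. The sum of 4 acinar genes was 33.9 to 58.4 and 144 to 251, nearly all from CPA1, which was called higher. That of 3 ductal genes was 242 to 379 and 78.1 to 162, nearly all from KRT19, which was called lower. PRSS1, CELA3A and CTRB1 each held at most 3 reads in a library, and CFTR and KRT7 at most 7. The alpha-cell hormone GCG and SST were called lower. The sum was 17.8 to 126 and 13.9 to 54.9 for 5 fibroblast genes, and 4.77 to 24.8 and 3.74 to 14.5 for 4 endothelial genes, with VWF at 0. Whether such RNA had a part in the interferon gene results was not tested. In bulk RNA, fewer cells of a type and less RNA per cell cannot be told apart.

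More interferon genes were lower than higher in senescent cells. Of the 37 tested, 10 were lower (HERC5, USP18, EPSTI1, PARP14, TRIM22, OAS3, XAF1, PARP9, MX2 and EIF2AK2) and 2 were higher (JAK1 and RSAD2). Calls required an adjusted p (Benjamini-Hochberg, limma with batch in the model) under 0.1 together with a fold change over 1.5. The 12 calls were 32.4% of the tested members, against 23.4% of the 13847 genes tested. The 10 lower calls were 27.0% of the members, against 11.8% of all genes, and the 2 higher calls were 5.41%, against 11.6%. EPSTI1 and PARP14 passed the filter only through the non-senescent libraries (means of 11.9 and 11.2, against 2.55 and 3.31 in senescent ones). With the filter at a mean of at least 20 both fell out, leaving 2 higher and 8 lower calls among 28 tested members. Of all genes tested under that filter, 23.0% were called (2689 genes). That share was not split into higher and lower calls, so whether lower calls stayed in excess there was not tested. Another 5 members passed the adjusted p but not the fold limit: RNF213 was higher, and TYK2, IFIT3, IFIT5 and SP100 were lower. The remaining 20 did not pass the adjusted p. The median log2 fold change over the tested members was -0.23, against 0.01 over all tested genes. With libraries scaled to the same total, the median of all genes moved by -0.104 on the log2 scale, and higher genes made up 37% of all calls in place of 49.6%. Under that scaling no member was called higher and 11 were called lower.

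**Figure D1:**
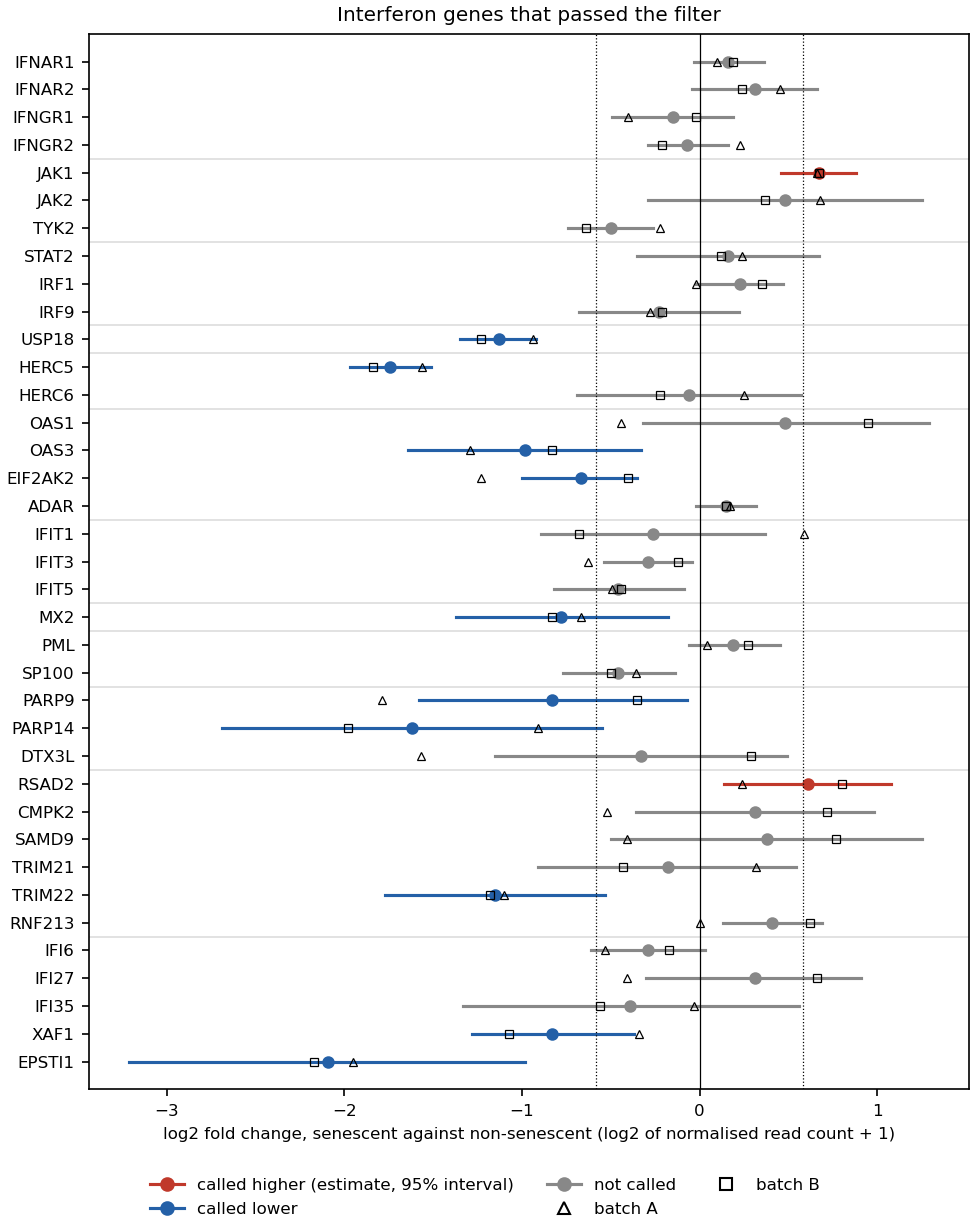
Log2 fold change of the 37 tested interferon genes, senescent against non-senescent, on the log2(normalised read count + 1) scale. Filled circles are the estimates from 12 libraries with 95% intervals as bars, open triangles and squares are batch A and batch B alone, dotted lines mark the fold limit of 1.5, and grey lines separate the roles. HERC5 and EPSTI1 lie farthest to the left at -1.74 and -2.09, and JAK1 at 0.67 is the farthest to the right.

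The fall was clearest in 2 genes of the ISG15 system, which couples the ubiquitin-like protein ISG15 to other proteins. HERC5, the ligase that attaches ISG15, lies on chromosome 4 (GRCh38, 88457119 to 88506163, plus strand). Its normalised read count was 276 in the lowest, 372 in the median and 400 in the highest non-senescent library, and 80.8, 110 and 116 in the senescent ones. All 6 senescent libraries lay below all 6 non-senescent ones. The log2 fold change was -1.74 ± 0.11 (SE; limma adjusted p = 1.58e-09), or 3.35-fold lower, and the batches gave -1.56 (A) and -1.84 (B). The neighbouring gene of the same family, HERC6, stood at 29.9 ± 12.7 and 29.0 ± 10.3, and its log2 fold change of -0.06 (95% interval -0.69 to 0.57) did not pass the test. Whether HERC5 and HERC6 differed in their change was not tested.

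USP18, the protease that removes ISG15 from proteins and blocks signalling at the IFNAR2 chain, lies on chromosome 22 (GRCh38, 18150118 to 18177397, plus strand). Its lowest, median and highest normalised read counts were 370, 422 and 623 in non-senescent and 148, 193 and 320 in senescent libraries. The groups did not overlap. The log2 fold change was -1.13 ± 0.10 (limma adjusted p = 1.18e-07), and the batches gave -0.94 (A) and -1.23 (B). A near-identical copy, USP41, could share reads with it but held only 2 to 12 reads per library, whereas USP18 held 119 to 1009. ISG15 itself had 0 reads in every library, and UBE2L6, the enzyme that hands ISG15 to the ligase, had 1 read in all. The 0 of 97774075 reads allow ISG15 up to 0.0307 ppm of the reads. Such floors take 3 reads as the limit and cover counting error only. None of 77 ribosomal protein genes was at 0 in every library, which cannot show whether reads of ISG15 were lost in counting. Why ISG15 had none was not tested.

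HERC5 and USP18 made up most of the difference in the summed level of the 58 genes. The summed normalised read count of batch A was 4070 to 4310 for non-senescent and 3520 to 3610 for senescent libraries, and that of batch B was 5480 to 5800 and 4810 to 5040. The mean sum fell by 629 in batch A, of which 472 lay in HERC5 and USP18 together, and fell by 754 in batch B, of which 504 lay in these genes. These 2 genes were singled out after their values were seen. Reads of all 58 genes made up 0.0457% to 0.0845% of a library.

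**Figure D2:**
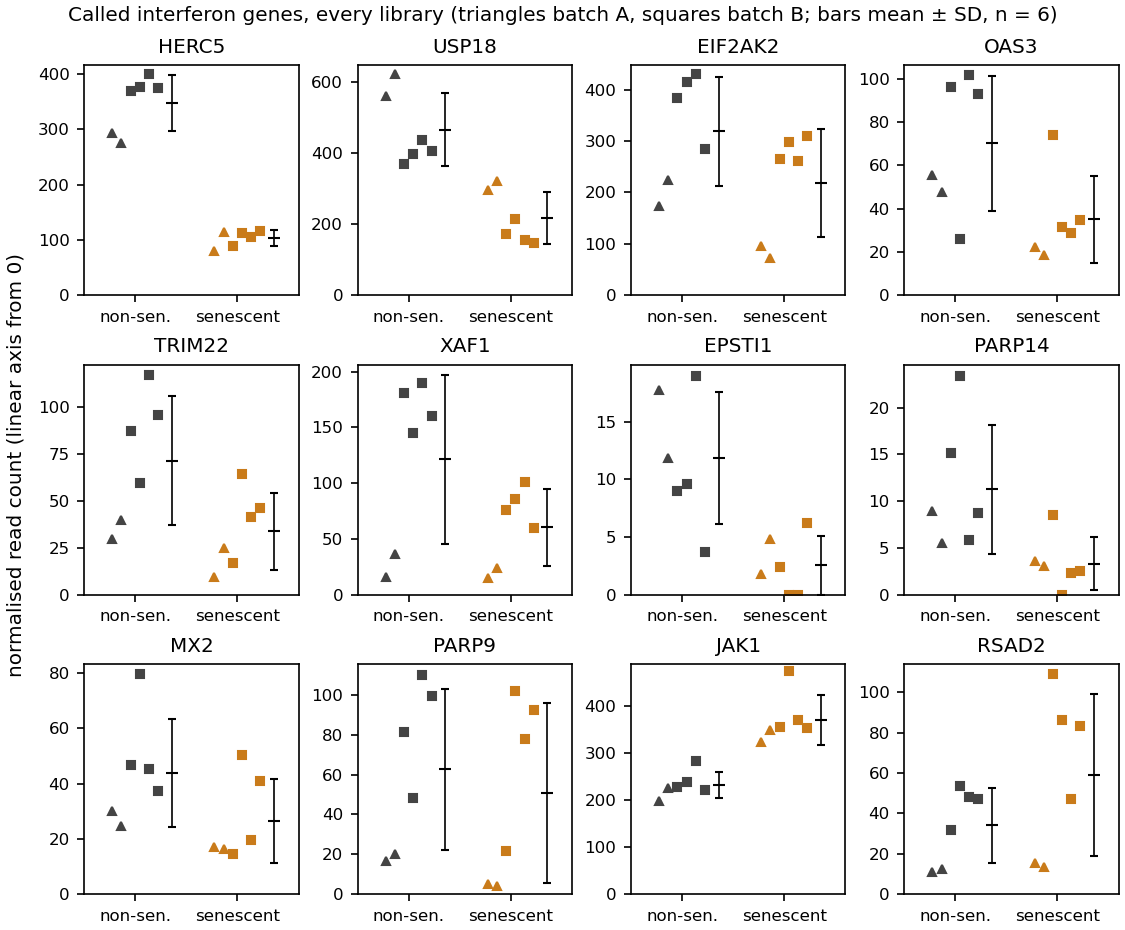
Normalised read count (linear axis from 0) of the 12 called interferon genes in every library. Triangles are batch A, squares are batch B, and bars are the mean ± SD of 6 libraries per group. HERC5, USP18 and JAK1 separate the groups without overlap, whereas PARP9, XAF1 and RSAD2 differ more between the batches than between the groups.

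Promoter sequences are shown for the genes whose calls or absence the results turn on. An interferon-stimulated response element was searched for as GAAA, any 2 bases, GAAA on both strands, with overlapping matches counted, in RefSeq windows from 250 bases before to 50 bases after the start site (GRCh38.p14). Of the 58 genes 47 had a window. IFNAR2, IRF7, USP18, OAS2, OASL, IFIT2, IFITM2, MX2, GBP2, PML and TRIM22 had none in the table used. The motif was in 26 of the 47 genes (55.3%), against 4.38% of the 27305 genes with a window. It was in 25 of 36 effectors (69.4%) and in 1 of 11 signalling genes (9.09%), which was SOCS1. Of the 7 genes called lower that had a window, all of them effectors, 6 held it, as did 1 of the 2 called higher (RSAD2). It was in 15 of all 32 tested members with a window (46.9%) and in 11 of the 15 below the filter. Whether the motif and the calls went together was not tested. A gamma-activated site, written TTCNNNGAA, which reads the same on both strands, was in 11 of 47 (23.4%), against 9.38% of all genes. A match is a run of letters, and binding was not measured here.

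Capitals mark the motif or its reverse complement. The HERC5 window (chr4:88456869-88457168, plus strand) held 3 matches, 2 of them overlapping and starting 125 and 119 bases before the start site and the other 74 before it. The ISG15 window (chr1:1013247-1013546, plus strand) held 2 overlapping matches, yet the gene had no read. The RSAD2 window (chr2:6877527-6877826, plus strand), 1 of 2 windows of a gene called higher, held 1 match.
HERC5: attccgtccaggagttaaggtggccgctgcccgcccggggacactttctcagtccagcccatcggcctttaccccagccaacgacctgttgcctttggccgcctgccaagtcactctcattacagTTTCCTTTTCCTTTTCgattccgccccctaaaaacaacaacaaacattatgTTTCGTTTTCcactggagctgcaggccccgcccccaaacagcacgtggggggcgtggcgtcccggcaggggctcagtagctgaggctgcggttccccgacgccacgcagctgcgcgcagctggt
ISG15: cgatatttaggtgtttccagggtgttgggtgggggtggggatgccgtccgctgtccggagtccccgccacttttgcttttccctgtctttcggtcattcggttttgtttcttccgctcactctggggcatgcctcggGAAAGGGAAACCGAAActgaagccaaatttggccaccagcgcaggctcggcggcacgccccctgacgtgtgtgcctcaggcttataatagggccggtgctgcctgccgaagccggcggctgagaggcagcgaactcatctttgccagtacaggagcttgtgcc
RSAD2: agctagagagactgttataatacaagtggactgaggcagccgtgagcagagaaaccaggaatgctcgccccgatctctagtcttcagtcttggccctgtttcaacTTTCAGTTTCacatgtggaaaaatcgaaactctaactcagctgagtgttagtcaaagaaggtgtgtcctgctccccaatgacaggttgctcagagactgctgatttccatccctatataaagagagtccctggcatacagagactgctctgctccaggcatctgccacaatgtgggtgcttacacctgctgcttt

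The matches of the other called genes that held one are given as 26-base stretches, beside those of BST2 and IFITM1, which had no read. OAS3 and IFITM1 each held 2 separate matches, and the 2 of BST2 overlap within one stretch. The windows of PARP9 and its partner DTX3L, which are read from opposite strands, overlap. The stretch on chromosome 3 (122564324 to 122564349) lies in both windows and is shown on the strand of PARP9. XAF1 and JAK1 had no match in their windows.
EIF2AK2 (chr2:37156969-37156994, minus strand): tccaagggGAAAACGAAActgagaac
OAS3 (chr12:112938323-112938348, plus strand): aaagaaacGAAACTGAAAgcagggaa
OAS3 (chr12:112938454-112938479, plus strand): ccgggcggGAAAACGAAAccagaaat
PARP14 (chr3:122680802-122680827, plus strand): caggaaacGAAAGCGAAAgagtcaaa
EPSTI1 (chr13:42992274-42992299, minus strand): gattctgaGAAACCGAAActcagctg
PARP9 (chr3:122564324-122564349, minus strand): gcgcaaagTTTCAGTTTCgcttccct
BST2 (chr19:17405743-17405768, minus strand): ctttctggGAAACTGAAACTGAAAac
IFITM1 (chr11:313992-314017, plus strand): aacagcagGAAATAGAAActtaagag
IFITM1 (chr11:314026-314051, plus strand): acttctgaGAAACTGAAAcgacaggg
The OAS3 match nearer the start site holds the same 10 letters in capitals as that of EIF2AK2, and the other OAS3 match differs from it.

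The receptor chains did not pass the test. IFNAR1 was 164, 210 and 290 normalised read counts in the lowest, median and highest non-senescent library and 206, 233 and 312 in the senescent ones, with a log2 fold change of 0.16 (95% interval -0.03 to 0.36). IFNAR2 was 50.0, 71.3 and 104 and then 75.4, 86.6 and 126, with a log2 fold change of 0.31 (-0.04 to 0.66). In both genes the groups overlapped. The interferon gamma chain IFNGR1 was 39.5, 58.7 and 89.8 and then 42.3, 53.5 and 68.2, with a log2 fold change of -0.15 (-0.49 to 0.19). IFNGR2 was 167, 796 and 957 and then 201, 660 and 879, with a log2 fold change of -0.07 (-0.29 to 0.16), and its batches differed 4.13-fold. All 4 intervals stayed within 0.66 of 0 on the log2 scale.

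The Janus kinases, which sit on the receptors, went different ways. JAK1, which serves both receptor types, lies on chromosome 1 (GRCh38, 64833223 to 65067754, minus strand). It was 197, 227 and 282 normalised read counts in the lowest, median and highest non-senescent library and 322, 354 and 474 in the senescent ones, without overlap. It rose by 0.67 ± 0.10 on the log2 scale (limma adjusted p = 3.79e-05), with rises of 0.66 (batch A) and 0.67 (batch B). With libraries scaled to the same total the rise was 0.56, under the fold limit, with an adjusted p of 0.000312. TYK2, which pairs with JAK1 at the type I receptor, was 293, 362 and 381 and then 201, 253 and 300. Its groups overlapped by the lowest non-senescent library alone, A2. Its log2 fold change of -0.50 ± 0.11 (limma adjusted p = 0.00202) passed the adjusted p but not the fold limit in the 12 libraries. It passed both in batch B alone (-0.64, adjusted p = 0.00486) and with the same total (-0.61, adjusted p = 0.000397). JAK2, a kinase of the interferon gamma receptor, was 2.92, 9.82 and 17.4 and then 11.5, 12.3 and 14.9, with a log2 fold change of 0.48 (95% interval -0.29 to 1.25) that did not pass.

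No transcription factor of the list passed the test. STAT2 was 11.7, 17.5 and 48.5 normalised read counts in the lowest, median and highest non-senescent library and 10.9, 22.3 and 49.5 in the senescent ones, with a log2 fold change of 0.16 (95% interval -0.35 to 0.67). IRF9, its DNA-binding partner, was 11.7, 20.9 and 61.2 and then 11.2, 17.1 and 52.5, with a log2 fold change of -0.23 (-0.68 to 0.22). IRF1, a factor induced by interferon gamma, was 46.9, 231 and 293 and then 44.4, 314 and 351. Its log2 fold change of 0.23 (-0.02 to 0.47; limma adjusted p = 0.137) came out at -0.02 for batch A and 0.35 for batch B. In all 3 genes the batches stood farther apart than the groups. IRF7, which amplifies the type I response, totalled 17 reads in the non-senescent group and 33 in the other, with 11 at most in one library. The feedback inhibitor SOCS1 had 10 and 18 reads, and SOCS3 had none. Over the 11 tested signalling genes, 1 was called higher (JAK1) and 1 lower (USP18), and their median log2 fold change was 0.16.

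Among the 44 effectors, 26 were tested, of which 9 were called lower and 1 higher, with a median log2 fold change of -0.31. The genes that sense double-stranded RNA or act on it held 2 of the lower calls. EIF2AK2, the kinase PKR that halts translation upon binding double-stranded RNA, was 173, 334 and 430 normalised read counts in the lowest, median and highest non-senescent library and 72.5, 264 and 311 in the senescent ones. Its log2 fold change was -0.67 ± 0.15 (limma adjusted p = 0.00196). The groups overlapped over both batches, with changes of -1.23 (batch A) and -0.40 (batch B). Without non-senescent A2 the change was -0.56 and without senescent A2 it was -0.55, both under the fold limit. OAS3, which makes oligoadenylates upon binding double-stranded RNA, was 26.2, 74.4 and 102 and then 18.7, 30.0 and 73.9. The log2 fold change was -0.98 ± 0.31 (limma adjusted p = 0.0187), and the groups overlapped. In batch B alone it was -0.83 and did not pass (adjusted p = 0.227). OAS1, a synthase of the same family, had a log2 fold change of 0.48 (95% interval -0.32 to 1.29), and ADAR, which edits double-stranded RNA, had 0.15 (-0.02 to 0.32), and neither passed.

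The IFIT proteins bind viral RNA, and no IFIT gene was called over the 12 libraries. IFIT3 had a log2 fold change of -0.29 ± 0.12 (limma adjusted p = 0.0672) and IFIT5 of -0.46 ± 0.17 (adjusted p = 0.0476), both under the fold limit. IFIT1 was 22.6 to 24.8 normalised read counts in all 6 non-senescent libraries and ranged from 6.23 to 35.6 in the senescent ones. The batches gave log2 fold changes of 0.59 (A) and -0.68 (B), and the difference between them did not pass (interaction adjusted p = 0.297). In batch A alone IFIT1 was called higher (adjusted p = 0.0666) and IFIT3 lower (-0.63, adjusted p = 0.0311).

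Of the interferon-induced GTPases, MX2 was called lower. MX2, which restrains lentiviruses, was 24.6, 41.3 and 79.8 normalised read counts in the lowest, median and highest non-senescent library and 14.5, 18.3 and 50.4 in the senescent ones. Its log2 fold change was -0.78 ± 0.28 (limma adjusted p = 0.0382), the groups overlapped, and without senescent B1 it was -0.58, just under the fold limit. In batch B alone it was -0.83 and did not pass (adjusted p = 0.173). MX1 had 24 and 20 reads over the 6 non-senescent and 6 senescent libraries and was not tested.

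The genes around ADP-ribosylation, a modification placed by the PARP enzymes, had 2 lower calls of 3. PARP14 was 5.56, 8.79 and 23.4 normalised read counts in the lowest, median and highest non-senescent library and 0, 2.76 and 8.48 in the senescent ones, with a log2 fold change of -1.62 ± 0.51 (limma adjusted p = 0.0177). These levels are a few reads per library. With a pseudocount of 8 the change was -0.73, still called, and in batch A alone the change was -0.91 and did not pass (adjusted p = 0.101). PARP9 was 16.7, 64.7 and 110 and then 4.23, 49.8 and 102, with wide overlap over both batches. It fell by 0.83 ± 0.36 on the log2 scale (limma adjusted p = 0.078), with -1.79 for batch A and -0.35 for batch B. The call did not hold with edgeR (-0.59, adjusted p = 0.17) or DESeq2 (-0.68, adjusted p = 0.105), nor when any of 7 libraries was left out: non-senescent A1, A2, B3 and B4 and senescent A1, A2 and B1 (-0.56 to -0.81). DTX3L, the E3 ligase that partners PARP9, was not called: its log2 fold change was -0.33 (95% interval -1.15 to 0.49), -1.57 for batch A, where it was called lower (adjusted p = 0.00714), and 0.29 for batch B.

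TRIM22, a ring-finger antiviral protein, was 29.5, 73.3 and 117 normalised read counts in the lowest, median and highest non-senescent library and 9.43, 33.0 and 64.0 in the senescent ones. It fell by 1.15 ± 0.29 on the log2 scale (limma adjusted p = 0.00473), with -1.10 for batch A and -1.18 for batch B and with overlap between the groups. In batch A alone it did not pass (adjusted p = 0.11). RSAD2, viperin, which makes a chain-terminating nucleotide, was the effector called higher. It was 11.1, 39.4 and 53.7 and then 13.3, 65.2 and 109, with a log2 fold change of 0.61 ± 0.22 (limma adjusted p = 0.0382), 0.24 for batch A and 0.80 for batch B. The call was lost without non-senescent B1 (0.49) and without senescent B1 (0.49), B2 (0.56) or B4 (0.57). It was also lost with the same total (0.51), with array weights (0.49), and with a pseudocount of 8 (0.53). CMPK2, the neighbouring kinase gene that is read from the opposite strand, had a log2 fold change of 0.31 (95% interval -0.36 to 0.98). RNF213, a large ubiquitin ligase, was 142 ± 13.4 and 193 ± 45.3, with a log2 fold change of 0.41 ± 0.13 (limma adjusted p = 0.0206), under the fold limit, and was called higher in batch B alone (0.62, adjusted p = 0.0092). SAMD9 and TRIM21 did not pass (0.38 and -0.18).

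Of the other interferon-induced genes, XAF1 and EPSTI1 were called lower. XAF1, which promotes apoptosis by binding XIAP, was 15.6, 152 and 190 normalised read counts in the lowest, median and highest non-senescent library and 14.8, 68.1 and 101 in the senescent ones. The log2 fold change was -0.83 ± 0.22 (limma adjusted p = 0.00574). In batch B the non-senescent libraries lay at 145 to 190 and the senescent ones at 59.8 to 101 (-1.07), whereas the groups overlapped in batch A (-0.34, adjusted p = 0.596 alone). EPSTI1, an epithelial-stromal interaction gene, was 3.73, 10.8 and 19.0 and then 0, 2.11 and 6.23, with a log2 fold change of -2.09 ± 0.53 (limma adjusted p = 0.00442), -1.95 for batch A and -2.17 for batch B. The size rests on few reads: with a pseudocount of 8 it was -0.89, still called, whereas HERC5 was -1.68. IFI6, IFI27 and IFI35 did not pass (-0.29, 0.31 and -0.39), and IFI27 was called higher in batch B alone (0.66, adjusted p = 0.069). The nuclear-body gene SP100 was 8.34 to 11.1 and 6.73 to 7.85 in batch A and 139 to 181 and 95.9 to 122 in batch B. Its batch A values rest on 15 and 14 reads in non-senescent and 15 and 13 in senescent libraries, so the gap there is uncertain. The log2 fold change of -0.46 ± 0.15 was under the fold limit. PML, its partner in nuclear bodies, did not pass (0.19).

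Few members were separated within both batches. In 4 of the 37 members (10.8%), JAK1 upward and USP18, HERC5 and SP100 downward, the groups were fully apart in each batch and moved the same way in both. Over all tested genes the share was 23.8%. In batch A SP100 held only 13 to 15 reads per library, so its separation there is uncertain. The median standard error of the log2 fold change was 0.216 over the members and 0.157 over all tested genes.

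Levels of many members differed between the batches. Of the 37 members 22 differed between the batches by the same limits (59.5%, against 53.1% of all genes), of which 15 were higher in batch B and 7 lower, and as the share is near that of all genes it is no result about the members. SP100 was 14.3-fold higher in batch B than in batch A (log2 difference 3.84), IFIT3 8.23-fold (3.04), PARP9 7.02-fold (2.81), IRF1 5.64-fold (2.49), XAF1 5.25-fold (2.39) and RSAD2 4.27-fold (2.09). In the other direction IRF9 was 3.36-fold, IFI6 2.74-fold and STAT2 2.63-fold lower in batch B. Members differed in both directions, with STAT2 and IRF9 higher in batch A and IRF1 and IFIT3 higher in batch B. All tested genes also went both ways, 3643 higher and 3707 lower in batch B. HERC5 moved little with batch (0.28) and TYK2 hardly at all (-0.02, adjusted p = 0.918). The response to senescence was not called different between the batches for any member (limma interaction, 0 of 37 members, against 4.21% of all genes). At an unadjusted p under 0.05 there were 6 such members (IFNGR2, EIF2AK2, IFIT1, IFIT3, DTX3L and RNF213), and edgeR also called 0, with 7 at an unadjusted p under 0.05. EIF2AK2 came nearest, with an interaction of 0.83 ± 0.25 (adjusted p = 0.106). In simulated data the limma interaction recovered only 33% of 2-fold and 73% of 4-fold differences in response. The 0 calls thus do not show that the batches responded alike, and against 4.21% of all genes they are no result about the members.

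**Figure D3:**
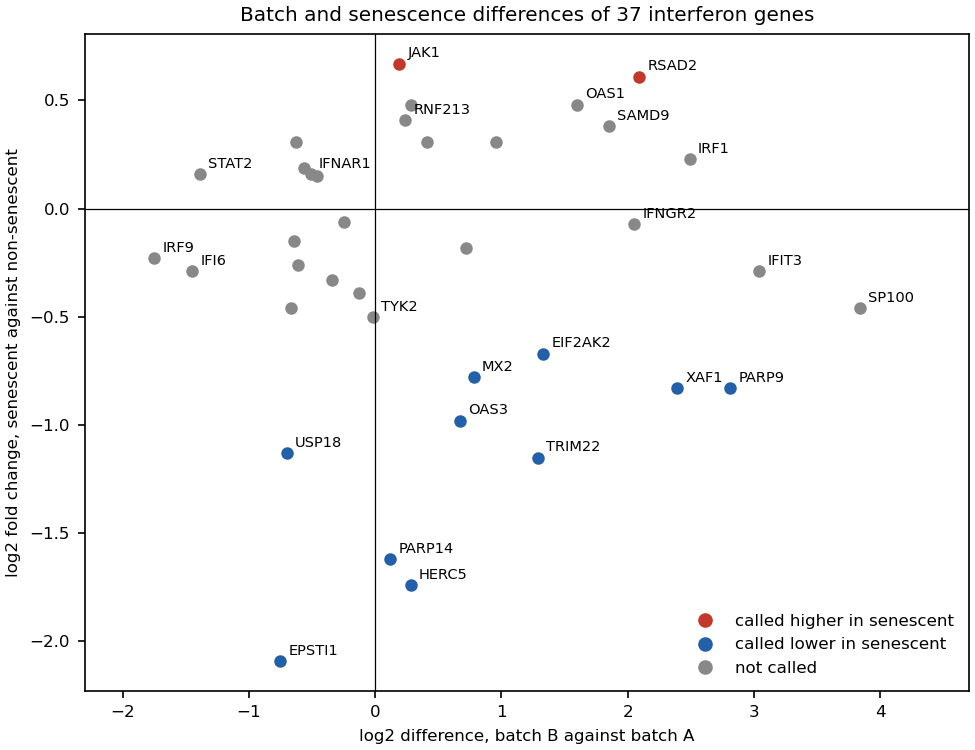
Log2 difference between batch B and batch A (horizontal) against log2 fold change between senescent and non-senescent cells (vertical) for the 37 tested interferon genes, both from one limma fit. The batch axis reaches 3.84 (SP100), whereas the senescence axis runs from -2.09 (EPSTI1) to 0.67 (JAK1).

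Many classical stimulated genes were nearly or wholly without reads. Of the 21 members below the filter, ISG15, SOCS3, IFITM1 and BST2 (tetherin, which holds budding virus at the cell surface) had 0 reads in all 12 libraries, 13 had at most 3 reads in every library, and 19 had at most 10. These genes included IFIT2, GBP1, GBP2, IFI44 and UBE2L6, with 1 to 5 reads over all libraries. One read in each of these libraries stood for 0.4489 to 1.506 normalised read counts, so a floor of 3 reads is 0.175 to 0.642 ppm of the reads. Most differences between the groups in these genes were not detectable at this depth. When the filter was dropped, 3 of these genes were called. Of all 22707 genes with reads, 14.9% were called in that fit, so the count is not read as a result about these genes. IFITM3, which blocks entry of viruses, totalled 28 reads in the non-senescent group against 3 in the other, although the senescent libraries together held more reads (55935618 against 41838457). IFITM3 was then called lower (log2 fold change -1.90, limma adjusted p = 0.0106). Its reads lay mostly in non-senescent B1, B2 and B3 (9, 9 and 5), with at most 2 in every other library. OASL had 23 and 6 reads (-1.40, adjusted p = 0.0888), of which 13 fell in non-senescent B3, and OAS2 had 1 and 6 reads (0.72, adjusted p = 0.0689), never more than 2 in a library and thus under the floor of 3 reads, so no difference is read from it.

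**Figure D4:**
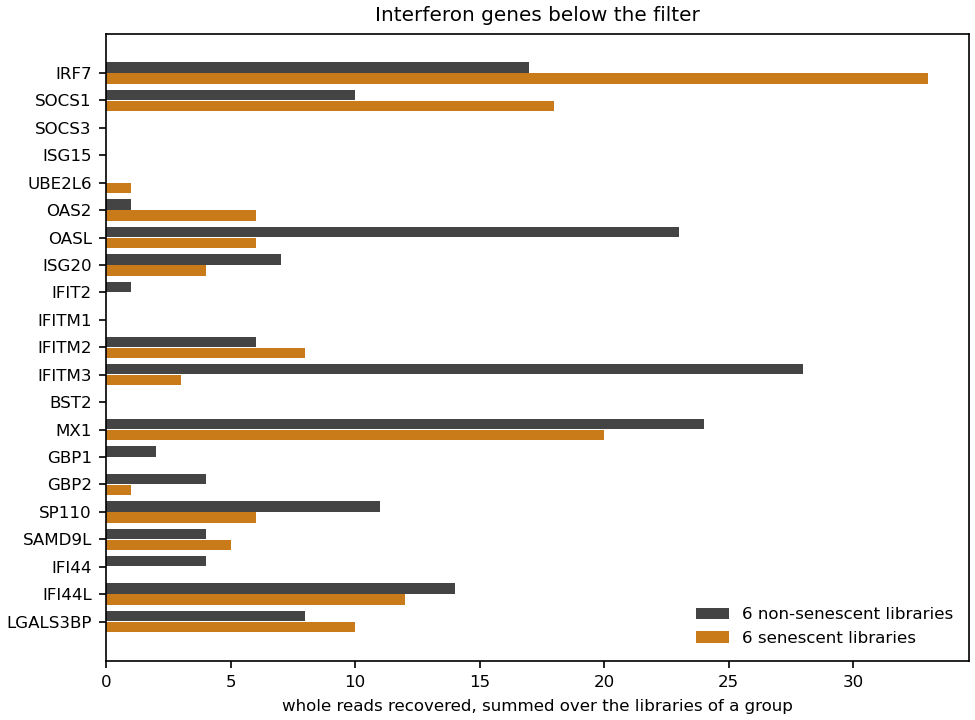
Reads recovered for the 21 interferon genes below the filter, summed over the 6 non-senescent and the 6 senescent libraries. ISG15, SOCS3, IFITM1 and BST2 have no bar, IRF7 has the most reads (17 and 33), and IFITM3 stands at 28 and 3.

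Further genes of the pathway were taken from a second list of 72, of which 49 were tested. There were 3 called higher and 3 lower, which is 12.2% of those tested, against 23.4% of all genes, and the median log2 fold change was -0.04. TNFSF10, the death ligand TRAIL, was called higher (mean normalised read counts of 18.3 and 49.7; log2 fold change 1.41 ± 0.22, limma adjusted p = 7.73e-05), as was SHISA5, a p53 target and interferon-stimulated gene (600 and 1020; 0.74 ± 0.11). The interferon lambda receptor chain IFNLR1 was lower (64.3 and 39.7; -0.70 ± 0.17), as were NMI (40.7 and 23.3; -0.83 ± 0.22) and the corepressor IRF2BP2 (1050 and 652; -0.72 ± 0.10). These genes kept their calls when any 1 library was left out, and IFNLR1, IRF2BP2 and NMI were not called in batch A alone, nor was NMI without a batch term. The 10 interferon ligand genes of the list had 35 reads over all libraries, 7 of them none, and none was tested.

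Counting of reads by strand was not stated, so values of genes that overlap another gene on the opposite strand are uncertain. In GENCODE v44 this held for 21 of the 37 tested members. Among the called ones these were JAK1 (with RAVER2), EIF2AK2 (with GPATCH11), TRIM22 (with TRIM5), OAS3 (with an unnamed gene), PARP9 (with DTX3L) and RSAD2 (with CMPK2). The others were IFNAR1, IFNAR2, IFNGR2, JAK2, IRF1, IRF9, OAS1, IFIT1, IFIT3, PML, SP100, DTX3L, CMPK2, RNF213 and IFI6. The other 16 tested members, HERC5, USP18, TYK2, XAF1, EPSTI1, MX2 and PARP14 among them, overlapped no other gene.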

How the data were processed

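By the methods and the submitters' processing notes, the authors used cutadapt for trimming, Salmon 0.13.1 with GRCh38 for quantification and DESeq2 for normalisation. The deposited values are a signal: estimated reads per gene divided by a size factor per library, called normalised read counts here. Which transcripts were used, and whether molecular identifiers were collapsed, is not given in the sources used here, and reads may be copies of one molecule. All 196021 non-zero values (100%) were whole multiples of their column's smallest value within 0.001, so whole reads were recovered (4672924 to 17106776 per library). The authors' deposited log2 fold changes, error, test statistic (a score) and p-values were not used.

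The main test was limma 3.58.1 (R 4.3.3) with intensity trend on log2(normalised read count + 1), which understates the change of low genes, for 13847 genes with a mean of at least 5. The model held batch and group. The interaction and batch differences used the same genes, and p-values were adjusted over all of them. The limits (adjusted p under 0.1, fold over 1.5) follow the study. Alternatives on the recovered reads were DESeq2 1.42.0 and the quasi-likelihood test of edgeR 4.0.16. Others varied pseudocount, filter, scaling, batch term, replicate block, batches, single libraries, trend, array weights and limits. The procedure was tested on simulated data. Libraries of one group and batch differed beyond sampling noise (chi-square per degree of freedom 4.28 to 8.05 over 14 pairs).

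The members and lists were chosen with earlier results of these data known. The naming rule gave full values for called members and for all signalling members, and named genes of the second list that were called with a mean of at least 20. One gene that the rule names is counted but not reported here. The second list, markers and motifs were set by symbol or letters. Positions came from GENCODE v44 on GRCh38, and promoter windows from RefSeq (GRCh38.p14).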

Additional observations from a re-analysis of the deposited data

Results flagged for a closer look

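A library stood far from the others of its group in 7 of the 74 combinations of gene and group examined. The measure was Dixon's ratio above its 95% critical value for 6 libraries, on the log2 scale. Chance flags about 1 in 20 only where all libraries of a group share one level. Each group held libraries of both batches, so the chance rate here is not known. JAK1 was 474 normalised read counts in senescent B2, the highest of its group. JAK2 was 14.9 in senescent B3, also the highest. TYK2 was 293 in non-senescent A2, the lowest of its group and the one library by which its groups overlapped. HERC6 was 11.4 in senescent B3, the lowest, and IFIT1 was 24.8 in non-senescent B4, the highest of a group that spanned only 22.6 to 24.8. IFI27 was 7.95 in non-senescent A2, the lowest, and IFI35 was 13.2 in non-senescent B3, the highest. Without senescent B2 the rise of JAK1 was 0.61 on the log2 scale and kept its call, and without non-senescent A2 the log2 fold change of TYK2 was -0.57.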

How the results depend on the processing

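The 12 calls among the members (2 higher, 10 lower) were the same genes with a pseudocount of 0.5, TMM or upper quartile scaling. The higher calls numbered 1 with a pseudocount of 8, 0 with the same total, 1 without a batch term, 4 in batch B alone (JAK1, RSAD2, RNF213 and IFI27) and 1 with array weights. Without a batch term 5 members were called, 4 of them lower. Leaving out 1 library gave 9 to 12 calls, with 1 to 2 higher and 8 to 10 lower. HERC5 and USP18 kept their calls in every alternative, and EPSTI1 did wherever it was tested. With the filter at a mean of at least 20, 1 member was called for the difference in response between batches, EIF2AK2 (0.83, adjusted p = 0.0888). IFNGR2 turned to 0.23 in batch A alone and 0.03 with array weights, and IRF1 to -0.02 in batch A alone, none of them past the test. The cause was not tested. Without a batch term OAS3, EIF2AK2, MX2, PARP9, RSAD2, TRIM22 and XAF1 were not called. Libraries with the same replicate name did not deviate together (correlation -0.0508 to 0.0164, 1 of 6 correlating best with its own name), and the replicate block in place of batch called the same 12 members (2 higher, 10 lower). Without the filter, 3386 of the 22707 genes with reads were called (14.9%). Of 606 single-gene values under all alternatives, over 21 genes, 561 kept direction and call, 39 lost the call, 3 gained it and 3 turned. Depth limits the 21 members below the filter and the tested genes with few reads, PARP14 and EPSTI1 among them. TRIM21, IFI35 and JAK2 held at most 12, 13 and 27 reads in a library. PARP9 held 11 and 7 reads in senescent A1 and A2.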
